A study of Homo sapiens with 6 samples.

Results

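The 10 genes described here code for proteins that switch off signalling through the kinase ERK. They are the dual-specificity phosphatases DUSP1, DUSP2, DUSP4, DUSP5, DUSP6 and DUSP7, the Sprouty proteins SPRY2 and SPRY4, and the Sprouty-related proteins SPRED1 and SPRED2. They were taken by name from 47577 loci in the expression table, and all 10 passed the minimum for testing together with 17568 loci in all. RNA-seq of polyadenylated RNA was made from OVCAR3, an established line of high-grade serous ovarian adenocarcinoma, grown in RPMI medium with serum and antibiotics. In 3 libraries the cells had received the solvent DMSO, and in the other 3 libraries they had received 200 nM THZ531, a covalent inhibitor of the transcription kinases CDK12 and CDK13. Both groups were collected at 6 h. Titles and sample characteristics name the inhibitor THZ531, whereas the treatment field of the same records names THZ1 at that dose, and the group is called THZ531 here. All libraries come from 1 cell line, and since no label ties them to separate cultures, p-values measure only the spread between these samples, which may be technical.

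Receptor tyrosine kinases pass growth signals through RAS, RAF and MEK to the ERK kinases, which enter the nucleus and turn on immediate early genes. Several of those genes code for inhibitors of the same route, so the pathway carries its own negative feedback. The DUSP proteins remove phosphate from the activation loop of MAP kinases, Sprouty proteins act near the receptors and RAS at the membrane, and SPRED proteins bring the RAS inhibitor NF1 to the membrane. The messages of many of these genes are short-lived.

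Reads assigned to genes ranged from 53054048 to 70986130 per library, and the mitochondrial genome held 8.50% to 10.1% of the normalised values, with overlapping ranges in the groups. Of 10 markers of serous ovarian epithelium, all were measured, 0 were called higher, PAX8 was called lower (log2 fold change -3.18) and 9 were not called. The summed level of the 6 leukocyte markers was 527 to 591 in DMSO and 517 to 598 in THZ531, with CD3E and MS4A1 at 0 in every library, CD68 averaging 404 and 410.2, CD14 119 in both groups and PTPRC 33.6 and 24.1. The fibroblast markers DCN and LUM averaged 1.59 and 1.15 in DMSO and 0 in THZ531. However, the summed level of the 6 fibroblast markers was 1659 to 1914 in DMSO and 3176 to 3517 in THZ531, with COL1A1 and COL3A1 both called higher. The summed level of the 5 endothelial markers was 286 to 319 in DMSO and 324 to 436 in THZ531. Of these, VWF (log2 fold change 0.73) and KDR (0.61) were called higher, TEK (-0.90) was called lower and 2 were not called. The part of these markers in the results was not tested.

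Upon THZ531, 5 of the 10 feedback genes rose, namely DUSP1, DUSP2, DUSP4, DUSP7 and SPRY2, and 0 fell. A gene was called when its fold change was at least 1.5 and its unadjusted p in limma at most 0.05, and 15.7% of all tested loci were called higher and 23.9% lower by that rule. With the deposited scaling, at an unadjusted p of at most 0.05 and any fold, 7 of the 10 genes were higher and 0 lower, against 35.6% and 35.1% of all tested loci. DESeq2 called 5 higher, against 15.3% of loci, and edgeR 4, against 14.7%. Both called 0 lower, against 23.4% and 24.4%. All 10 log2 fold changes were above 0 with the deposited scaling, against 49.7% of all tested loci. Their median was 0.46, against -0.01 over all tested loci. When adjusted p alone was used, at any fold, 7 of the 10 were higher and 0 lower, against 34.6% and 34.1% of all tested loci. SPRY4 was the weakest of the 7 and lost this threshold in 5 of 6 fits that left out a library and, among other settings, in edgeR, with TMM scaling and in limma without a trend, where DUSP6 lost it too. SPRED1 gained it without the third THZ531 library. The groups did not overlap for the 5 called genes, all higher, against 36% of all tested loci with every THZ531 library higher and 35.7% with every one lower. In bulk RNA, fewer cells of a type and less RNA per cell cannot be told apart.

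**Figure D1:**
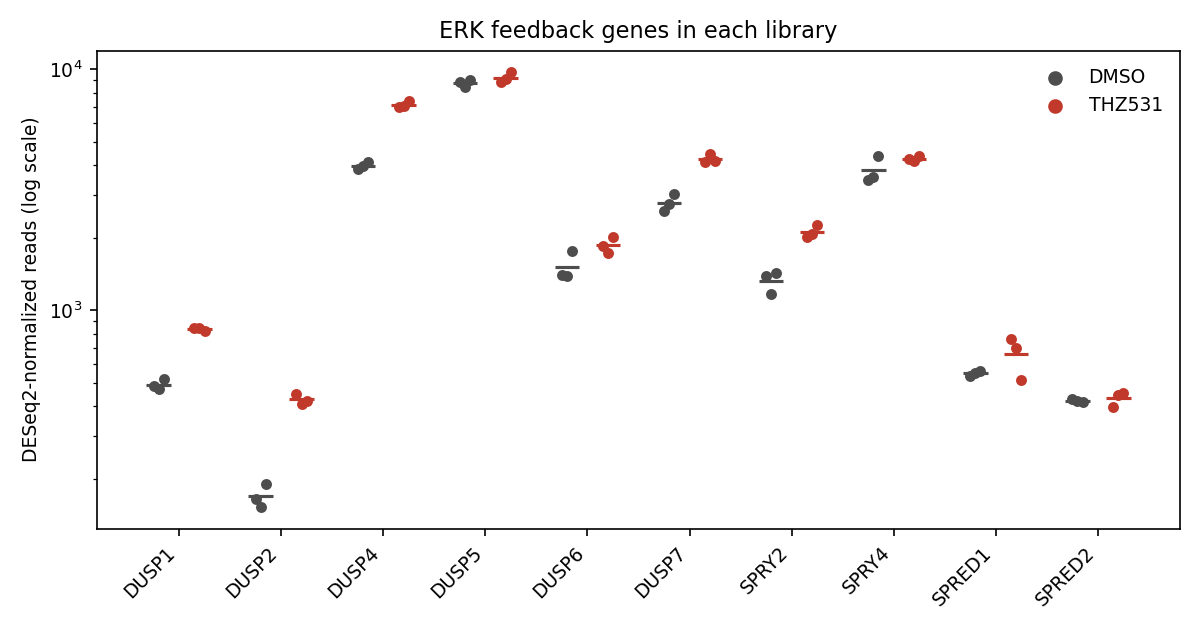
Normalised reads of each of the 10 feedback genes in every library, with DMSO and THZ531 side by side on a log axis and a bar at each group mean. DUSP1, DUSP2, DUSP4, DUSP7 and SPRY2 have every THZ531 library above every DMSO library, and the groups of the other 5 genes overlap.

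DUSP1, DUSP2, DUSP4 and DUSP5 are nuclear phosphatases whose genes are induced by growth factors. DUSP1, also known as MKP-1, acts on p38 and JNK as well as ERK, and lies on the minus strand at chr5:172768096-172771228 (hg38) with 4 exons. DUSP2, known as PAC-1, lies on the minus strand at chr2:96143169-96145440 and also has 4 exons. The letters just before the RefSeq start of both genes, taken from the RefSeq promoter table (GRCh38.p14), are shown because both genes rose and because known motifs fall there. Each run covers 250 bases up to the RefSeq start and reads 5′ to 3′ on the gene's strand, and capitals mark the cAMP response element TGACGTCA, the E-box CACGTG and the TATA box TATAAA. The DUSP1 window is chr5:172771196-172771445 and the DUSP2 window is chr2:96145441-96145690, both on the minus strand. The RefSeq start of DUSP1 lies 33 bases inside the locus given above, so the end of its window, with the TATA box, overlaps that locus.
DUSP1: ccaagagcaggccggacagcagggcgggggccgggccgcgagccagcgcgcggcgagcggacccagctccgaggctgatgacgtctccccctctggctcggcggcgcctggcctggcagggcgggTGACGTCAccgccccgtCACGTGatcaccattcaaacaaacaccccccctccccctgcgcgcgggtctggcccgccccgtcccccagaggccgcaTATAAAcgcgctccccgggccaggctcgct
DUSP2: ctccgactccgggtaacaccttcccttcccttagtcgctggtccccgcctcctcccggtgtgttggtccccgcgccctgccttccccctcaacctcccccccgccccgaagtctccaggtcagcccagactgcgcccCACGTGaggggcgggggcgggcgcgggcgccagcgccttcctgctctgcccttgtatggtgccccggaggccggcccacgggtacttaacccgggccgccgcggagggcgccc

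In the DUSP1 window the cAMP response element began 125 bases before the start, the E-box 108 bases and the TATA box 30 bases. In the DUSP2 window the E-box began 113 bases before the start, and the other 2 marked motifs were not found on either strand. Among 35116 promoters of the table, 1.65% held the cAMP response element, 6.34% the E-box and 10.7% the TATA box in a window of this length. Also searched on both strands were the GC box GGGCGG (42.6% of promoters), the AP-1 motif TGANTCA (6.57%), the ETS motif CCGGAAG (8.52%) and the CArG box (1.16%). The AP-1 motif, the ETS motif and the CArG box were in none of the windows of the 8 matched genes, and the GC box matches in the DUSP1 and DUSP2 windows overlapped no other match. The marked motifs were absent from the windows of DUSP7 and SPRY2, which also rose, and from those of DUSP6, SPRY4 and SPRED1. The second window of SPRED2, which was not called, held a TATA box. DUSP4 and DUSP5 had no entry. A match describes letters in a window and is not evidence of a bound site.

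DUSP1 had 487, 471 and 519 normalised reads in the DMSO libraries and 849, 845 and 818 in the THZ531 libraries. Its groups did not overlap, and the mean went from 492 ± 24.0 to 837 ± 16.7 (SD, n = 3). The log2 fold change was 0.77 (SE 0.08, 95% interval 0.60 to 0.93), a fold of 1.70, with a limma Benjamini-Hochberg adjusted p of 3.2e-07.

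DUSP2 was the lowest of the nuclear phosphatases per length of transcript and had the largest rise of the 10 genes. It had 164, 153 and 189.9 normalised reads in DMSO and 449.6, 409 and 422 in THZ531. The lowest THZ531 library lay far above the highest DMSO library. DUSP2 rose by 1.34 on the log2 scale (SE 0.13, 95% interval 1.07 to 1.60), a fold of 2.52, with an adjusted p of 1.0e-07 in limma. This placed DUSP2 at percentile 94.8 of all tested loci.

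DUSP4, or MKP-2, a nuclear phosphatase of ERK and JNK, lies on the minus strand at chr8:29333063-29350684 and spans 17622 bases. It had 3871, 3962 and 4121 normalised reads in DMSO and 6949, 7035 and 7362 in THZ531. All THZ531 libraries were above all DMSO libraries, and replicates differed little. DUSP4 rose by 0.84 on the log2 scale (SE 0.04, 95% interval 0.75 to 0.93), with an adjusted p of 7.4e-11 in limma.

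DUSP5, a nuclear phosphatase selective for ERK, lies on the plus strand at chr10:110497907-110511537. It had 8885, 8432 and 9032 normalised reads in DMSO and 8873, 9103 and 9692 in THZ531. The groups overlapped, with the first library of each close together. DUSP5 had a log2 fold change of 0.07 (SE 0.04, 95% interval -0.02 to 0.16) and an adjusted p of 0.15 in limma. The interval excluded the 1.5-fold threshold with the deposited scaling. The pseudogene DUSP5P1 shares an entry with RHOU in the table, and how reads matching it and DUSP5 were split is not given in the sources used here.

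DUSP6 and DUSP7 are cytoplasmic phosphatases selective for ERK, and DUSP6 in particular is a widely used readout of ERK activity. DUSP6 lies on the minus strand at chr12:89347235-89352503 and DUSP7 on the minus strand at chr3:52048919-52056571. DUSP6 had 1398, 1388 and 1769.7 normalised reads in DMSO and 1848, 1732 and 2022 in THZ531. The third DMSO library was above the second THZ531 library, so the groups overlapped. Its log2 fold change was 0.30 (SE 0.09, 95% interval 0.12 to 0.49), with an adjusted p of 0.0047 in limma, below the fold that was asked for.

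DUSP7 had 2571, 2757 and 3042 normalised reads in DMSO and 4139.9, 4440.0 and 4157 in THZ531. The groups were far apart. The log2 fold change was 0.61 (SE 0.06, 95% interval 0.49 to 0.73) and the fold of 1.52 was just above the threshold, with an adjusted p of 1.1e-07 in limma. The call was lost in edgeR, at 0.58, without the first DMSO library, at 0.55, and without the second THZ531 library, at 0.58.

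SPRY2 and SPRY4 are membrane-associated inhibitors of receptor signalling to RAS. SPRY2 lies on the minus strand at chr13:80335976-80341126 and SPRY4 on the minus strand at chr5:142310430-142325040, each with 2 exons. SPRY2 had 1387, 1174 and 1424 normalised reads in DMSO and 2011, 2073 and 2259 in THZ531. Its groups were separate, with a log2 fold change of 0.67 (SE 0.07, 95% interval 0.52 to 0.83), a fold of 1.60 and an adjusted p of 5.4e-07 in limma.

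SPRY4 had 3469, 3576 and 4366 normalised reads in DMSO and 4242, 4159 and 4369.8 in THZ531. The third DMSO library was almost as high as the highest THZ531 library. The log2 fold change was 0.17 (SE 0.07, 95% interval 0.03 to 0.31) with an adjusted p of 0.035 in limma, and it was not called. Without any scaling step between libraries, the log2 ratio of SPRY2 to SPRY4 within a library averaged -1.51 ± 0.17 in DMSO and -1.01 ± 0.06 in THZ531 (SD, n = 3), a difference of 0.50. The reads in this ratio were not divided by length.

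SPRED1 and SPRED2 are longer genes, spanning 104935 and 121749 bases at chr15:38252315-38357249 (plus strand) and chr2:65310851-65432599 (minus strand). SPRED1 had 534, 551 and 559 normalised reads in DMSO and 761, 698 and 514 in THZ531. The third THZ531 library lay below all DMSO libraries while the other 2 lay above them, and the coefficient of variation in THZ531 was 19.5%, against 4.24% from counting alone. The log2 fold change was 0.24 (SE 0.12, 95% interval -0.01 to 0.49), with an adjusted p of 0.078 in limma. It was 0.41 without the third THZ531 library (adjusted p = 0.0014 in limma) and 0.13 without the first (adjusted p = 0.37 in limma). SPRED2 had 429, 420.3 and 416 normalised reads in DMSO and 398, 444 and 453 in THZ531. Its groups overlapped, and the log2 fold change was 0.03 (SE 0.10, 95% interval -0.17 to 0.24, adjusted p = 0.79 in limma).

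The table also holds loci that lie inside or across these genes, and 5 of 8 such loci passed the minimum. An unnamed locus inside intron 2 of SPRED2, at chr2:65341978-65343774 (hg38), had 5.56, 7.42 and 19.1 normalised reads in DMSO and 383, 322 and 306 in THZ531. All THZ531 libraries were many times higher than any DMSO library. With 39 reads in DMSO (7, 8 and 24 by library) and 856 in THZ531, the ratio was 30.9. The log2 fold change over the alternatives ranged from 4.12 to 5.50. The locus reached the minimum for testing through the THZ531 libraries, so no p or interval is given for it. The locus is 1797 bases long, begins 945 bases into an intron of 9945 bases and overlaps no exon of the GENCODE annotation. Set beside the normalised reads of SPRED2 in the same library, which needs no scaling, it came to 1.30%, 1.77% and 4.60% in DMSO and to 96.2%, 72.4% and 67.6% in THZ531. Neither value was divided by length. The SPRED2 value itself was not called.

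The last 120 bases of that locus are shown because it ends near an AATAAA hexamer, the letters of the common polyadenylation signal. Such hexamers are frequent here: the intron of 9945 bases holds 12, of which 6 begin before the end of the locus. How often a locus would end near one without any use of it was not computed. Whether the hexamer is used was not tested. The bases lie at chr2:65341978-65342097 in hg38, are read 5′ to 3′ on the minus strand as SPRED2 is, and capitals mark the hexamer AATAAA, of which the locus holds 4.
SPRED2 intron 2 locus: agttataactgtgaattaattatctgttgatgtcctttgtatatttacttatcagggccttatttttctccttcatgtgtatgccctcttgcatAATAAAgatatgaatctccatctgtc

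The capital hexamer begins 26 bases before the end of the locus. The table gives no strand for the locus, nor is it known whether counting used strand, so the strand its reads came from cannot be told. Locus identifiers mostly run along a strand in this table. For 23053 named loci, the named neighbours by identifier on either side shared a chromosome and strand. Of these loci, 22796 (98.9%) were on that same strand. All 71 named loci nearest in identifier to the SPRED2 locus were on the strand of SPRED2, which concerns the entry in the table and not its reads.

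A second such locus lies in intron 1 of SPRED1, at chr15:38253456-38254510, and starts 239 bases into an intron of 46155 bases. It had 1.59, 0 and 0 normalised reads in DMSO and 23.9, 17.1 and 19.3 in THZ531. With 2 reads in DMSO and 51 in THZ531, the ratio was 35.9, a value that rests on those 2 DMSO reads. The locus held 0 AATAAA hexamers. It too reached the minimum through the THZ531 libraries, so no p or interval is given. Its value came to 2.44% to 3.76% of that of SPRED1 in THZ531, again without division by length.

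**Figure D2:**
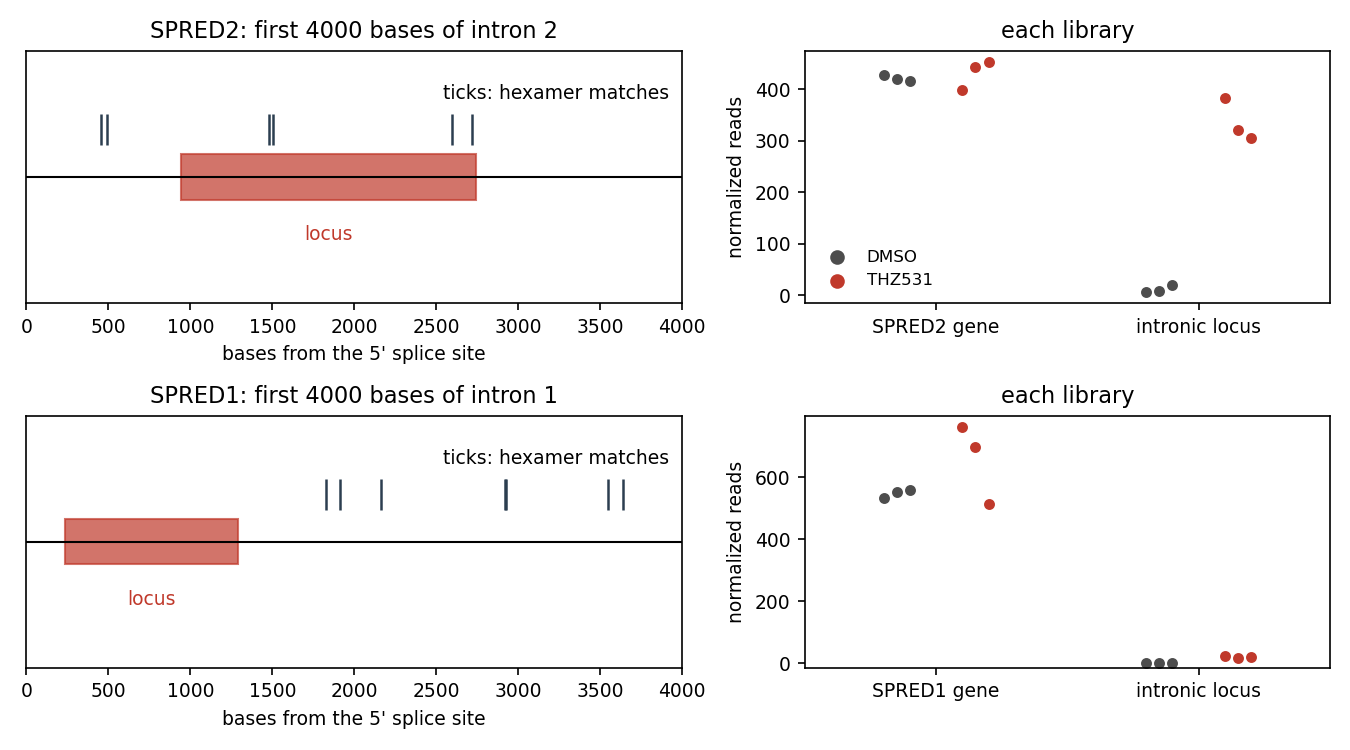
Left, the beginning of intron 2 of SPRED2 and intron 1 of SPRED1, in bases from the 5′ splice site, with the unnamed locus as a box and AATAAA hexamers as ticks; right, normalised reads of each gene and its intronic locus, one point per library. The SPRED2 locus went from 5.56 to 19.1 in DMSO to 306 to 383 in THZ531, while SPRED2 ranged between 398 and 453.

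To rank the genes by level, normalised reads were divided by the length of the longest transcript. In DMSO the order of normalised reads per kb was DUSP5 (3546), DUSP7 (830.0), DUSP4 (718), SPRY4 (711), SPRY2 (491), DUSP6 (419), DUSP1 (245), DUSP2 (100.4), SPRED2 (93.4) and SPRED1 (75.3). In that order DUSP4 and SPRY4, SPRY2 and DUSP6, and DUSP2 and SPRED2 overlapped between libraries, as did DUSP7 and SPRY4, which are not neighbours. In THZ531 DUSP4 (1281 per kb) and DUSP7 (1263) overlapped next below DUSP5 (3723), followed by SPRY4 (796) and SPRY2 (781), which also overlapped. DUSP6 (515), DUSP1 (416), DUSP2 (253), SPRED2 (95.5) and SPRED1 (90.5) followed, and the last pair overlapped. With merged exons as the length, DUSP7 in DMSO ranked below SPRY4 and DUSP4, and its level was 492 per kb.

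Among the 6 phosphatases the makeup of the pool differed between the groups. DUSP5 made up 60.6% ± 1.44 of their summed reads per kb in DMSO and 49.9% ± 0.83 in THZ531 (SD, n = 3). DUSP4 went from 12.3% to 17.2%, DUSP7 from 14.2% to 17.0%, DUSP2 from 1.71% to 3.40% and DUSP1 from 4.18% to 5.59%, with no overlap between groups for these 4 or for DUSP5. DUSP6 made up 7.13% and 6.90%. These shares do not depend on how libraries were scaled, but they depend on the length used. With merged exons, DUSP5 went from 66.3% to 56.1%, DUSP4 from 10.5% to 15.1% and DUSP7 from 9.40% to 11.6%. In normalised reads not divided by length, the log2 ratio of DUSP4 to DUSP5 was -1.14 ± 0.06 in DMSO and -0.37 ± 0.02 in THZ531. With 3 against 3 libraries the exact permutation p (two-sided) was 0.1, the smallest that the design allows, and 0.145 when adjusted over 45 pairs of the 10 genes. Of these pairs, 31 had no overlap between the groups, this one and SPRY2 to SPRY4 among them. Over all tested loci, 36% had every THZ531 library higher and 35.7% every one lower. Ratios and shares of other genes were not counted, so neither separation can be called particular to these 10 genes.

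**Figure D3:**
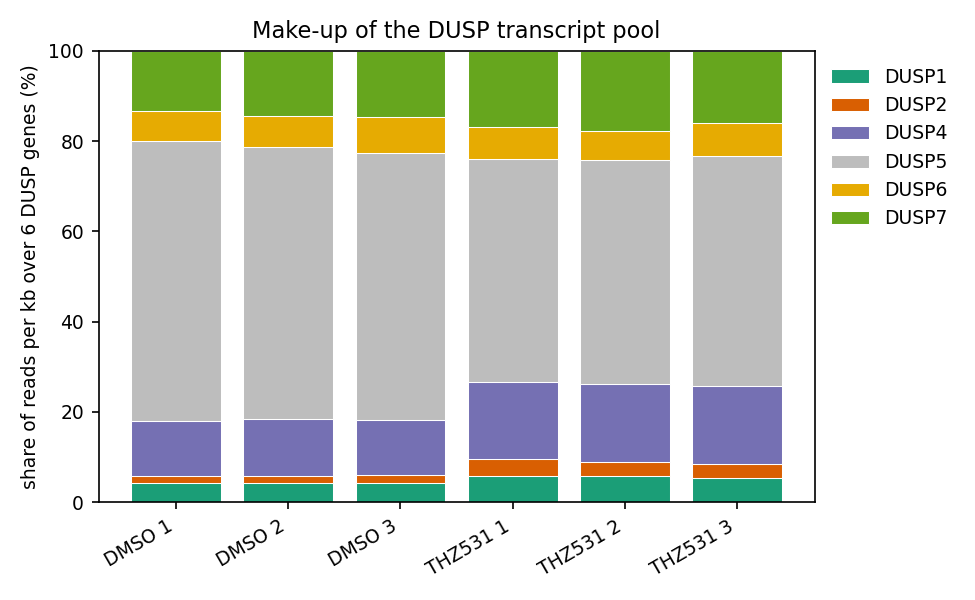
Share of the summed normalised reads per kb of 6 DUSP genes that each gene made up, in percent, for each of the 3 DMSO and 3 THZ531 libraries. DUSP5 takes 59.3% to 62.1% in DMSO and 49.3% to 50.9% in THZ531, and DUSP4 and DUSP2 take a larger share in THZ531.

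The calls depended on how libraries were scaled. Setting each library to the same total lowered every log2 fold change by about 0.24, and setting each to RPL34, the reference transcript of the study's qPCR, lowered them by 0.49. With the same total, DUSP2 (1.09) and DUSP4 (0.59) were called higher, against 9.38% of all tested loci, and 0 were called lower, against 32%. With RPL34, DUSP2 (0.84) alone was called higher, against 6.14%, and 0 of the 10 genes were called lower, against 42.8%. DUSP1, DUSP2, DUSP4, DUSP7 and SPRY2 stayed above 0 in both, whereas DUSP5, SPRY4 and SPRED2 were below 0 in both, and DUSP6 and SPRED1 were below 0 with RPL34 alone. The 95% intervals of DUSP5 and SPRED2 lay wholly below 0 in both, and that of SPRY4 with RPL34. With RPL34, those of DUSP7 (-0.10 to 0.33) and SPRY2 (-0.03 to 0.40) included 0, as did those of DUSP6 and SPRED1. RPL34 itself had means of 12999 and 18247 normalised reads.

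**Figure D4:**
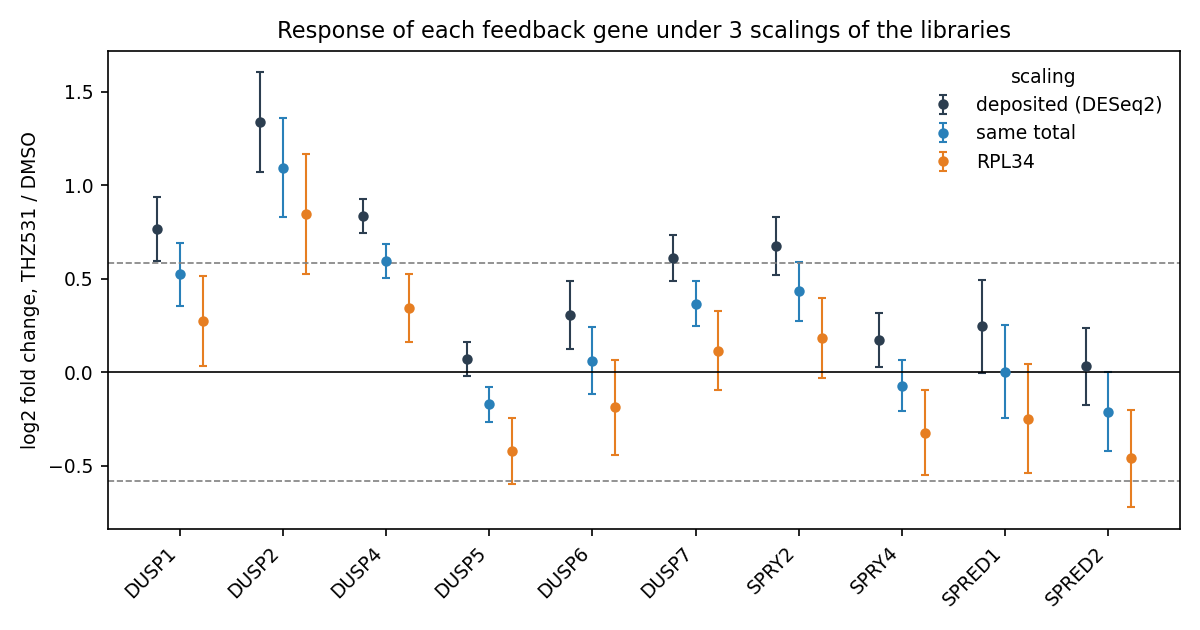
Log2 fold change (THZ531 against DMSO) of each feedback gene with its 95% interval under the deposited scaling, the same total per library and scaling to RPL34, with dashed lines at a fold of 1.5 in either direction. DUSP2 is above the 1.5-fold threshold in all of them, while DUSP5, SPRY4 and SPRED2 pass below 0 under both alternatives.

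Most of the genes that rose were short. Of the 5 feedback genes that span under 10 kb, 4 were called higher, against 17.0% of the 3693 tested genes of that span. Of the 3 that span 10 to 30 kb, DUSP4 was called, against 10.1%. Of the SPRED genes, which span 100 kb or more, 0 were called, against 12.3%.

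Of the 7 other genes of these families, 1 rose and 3 fell, with a median log2 fold change of 0.22. By the same rule, 15.7% of all tested loci were called higher and 23.9% lower. DUSP10, a phosphatase of p38 and JNK, rose from 3793 ± 77.3 to 5770.0 ± 135 (log2 fold change 0.60). SPRED3 stood at 284 ± 7.50 normalised reads in DMSO and fell to 53.8 ± 16.0 in THZ531 (-2.42, adjusted p = 4.1e-08 in limma), DUSP16, another JNK and p38 phosphatase, fell from 161 ± 27.0 to 35.4 ± 15.7 (-2.25), and SPRY3 fell from 148 ± 26.1 to 20.9 ± 20.5, with 1 THZ531 library at 0. SPRY1 went from 849 to 1230 normalised reads and was not called (0.53). Of 14 other dual-specificity phosphatases that were tested, 2 rose and 4 fell, with DUSP3, which acts on ERK and JNK, at -1.62, DUSP18 at -2.58, DUSP13 at -1.55, SSH1, a cofilin phosphatase, at 1.01 and DUSP11, a phosphatase of RNA ends, at 0.70.

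The rest of the ERK route moved in both directions, as did all tested loci, of which 15.7% were called higher and 23.9% lower. MAPK3, which codes for an ERK kinase that these phosphatases act on, was at 1510.0 ± 41.5 normalised reads in DMSO and 1490.0 ± 83.3 in THZ531 (log2 fold change -0.02, adjusted p = 0.78 in limma). Among the kinases from RAF to RSK, MKNK1, which phosphorylates a translation factor, fell (-1.24), as did RPS6KA2, a kinase activated by ERK (-0.87). Among 10 receptor tyrosine kinases, FGFR1 (1.05), FGFR3 (0.90) and IGF1R (0.74) rose and EGFR (-2.37) fell. Among 17 adaptors and RAS regulators, the RAS inhibitor RASA2 (1.38) and the docking proteins GAB1 (0.70) and FRS2 (0.61) rose, and LZTR1 (-1.19), which targets RAS proteins for degradation, fell.

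Of the 13 kinases of the JNK and p38 routes, MAPK8 (0.80) and MAP2K6 (0.61) rose and MAPK9 (-0.60) fell. Of 10 transcription factors that ERK acts on, 0 rose and 2 fell, against 15.7% and 23.9% of all tested loci. CREB1 was at -2.30 and ELK3 at -1.11. Of 13 tested output genes of ERK, 3 rose and 3 fell, against the same shares of all tested loci. The immediate early genes FOS (1.44) and IER3 (1.10) and the EGFR ligand HBEGF (1.24) rose, and FOSL1 (-1.02), ETV5 (-1.01) and ETV1 (-0.80) fell. The median log2 fold change of those outputs was -0.11, that of the 10 feedback genes 0.46, and that of all tested loci -0.01.

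**Figure D5:**
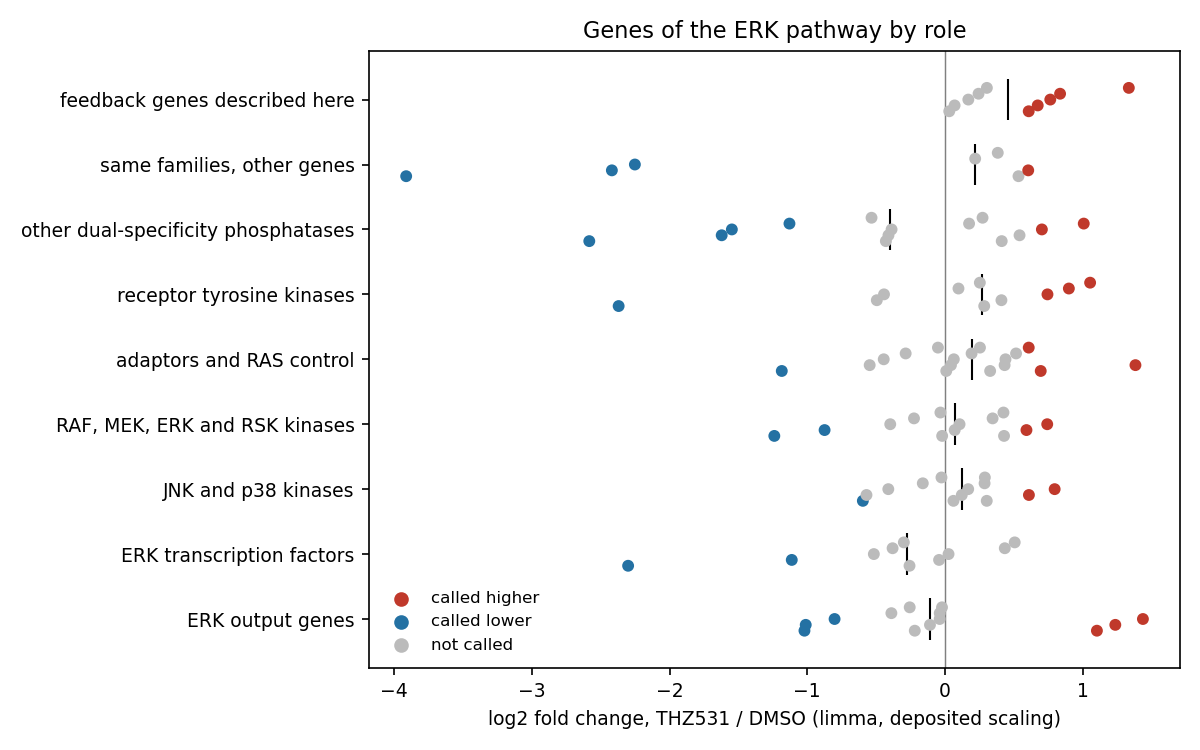
Log2 fold change (THZ531 against DMSO) of every tested gene in each list of the ERK route, one point per gene, with the median marked and called genes in colour. All 10 feedback genes lie above 0 with the deposited scaling, against 49.7% of all tested loci. The other lists hold genes on both sides. Scaled to RPL34, 5 of the 10 feedback genes lie below 0.

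To find genes of like pattern, the 6 log2 values of each tested gene were centred on the DMSO mean and compared by Euclidean distance. Nearest to DUSP2, which rose most, were CDC14A (0.08), RAPGEF6 (0.14) and KMT5B (0.15). No gene of the 10 had a negative log2 fold change, and nearest to SPRED2, which had the smallest, were DCP1A (0.06), CPNE2 (0.07) and NAPRT (0.07).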

How the data were processed

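OVCAR3 polyA RNA was sequenced from TruSeq Stranded mRNA libraries. The authors deposited 1 table of signal values, gene counts divided by DESeq2 size factors, made on hg38; the submitters' processing notes list STAR 2.7.5a, while the methods name another version. Whether counting used strand is not given in the sources used here. Whole reads were recovered for 100% of values (tolerance 0.01). On log2(value + 1), loci at 10 or more in at least 3 libraries were tested with limma 3.58.1 (trended variance, R 4.3.3), and fold changes of low genes are understated. Calls needed a fold of 1.5 and p of at most 0.05. Alternatives were edgeR 4.0.16 on recovered reads (2582 higher, 4281 lower), DESeq2 1.42.0 (2680 and 4108), other scalings, pseudocounts and minimums, a replicate block and leaving out each library. Named were the 10 genes, MAPK3, up to 3 called genes per direction and list, at most 3 further uncalled genes, genes of nearest pattern and overlapping loci; some items that this rule names are not reported here. The test was checked on simulated data. Lengths came from GENCODE and promoters from RefSeq. Members and lists were chosen with earlier results of these data known. Sample columns not used numbered 0.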

Additional observations from a re-analysis of the deposited data

How the results depend on the processing

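The number of feedback genes called higher was 5 with the deposited scaling, 2 with the same total, 1 with RPL34 scaling and 1 at a fold of 2; leaving out each library gave 4 to 5. Log2 fold changes turned below 0 for DUSP5 (-0.17 with the same total, -0.42 with RPL34), SPRY4 (-0.073 and -0.32), SPRED2 (-0.21 and -0.46), DUSP6 (-0.19 with RPL34) and SPRED1 (-0.25 with RPL34), and that of SPRED2 ranged from -0.0042 to 0.089 when a library was left out. Of 180 alternative values of the 10 genes, 161 kept direction and call, 10 kept direction and lost the call and 9 changed direction. Over all tested loci, 1647 were higher with the same total, 1078 with RPL34 and 1353 at a fold of 2, and 7524 were lower with RPL34 and 2689 at a fold of 2, against 2751 and 4197. The lower shifts follow from the scaling itself; which scaling matches RNA per cell was not tested. Same-numbered libraries did not deviate together (correlations of 0.002, 0.02 and -0.04), so the numbers were not taken as pairs, and with the replicate block 5 of the 10 genes were higher and 0 lower, with 2745 and 4173 over all loci. Leaving out 1 library changed the call of DUSP7 alone among the 10 genes. Low reads limit the SPRED1 intron locus.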

Other observations

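With limma and the deposited scaling, the other loci that overlap the feedback genes and were tested did not pass the call rule. A locus that overlaps DUSP6 averaged 30.8 normalised reads in DMSO and 21.0 in THZ531 (log2 fold change -0.52, adjusted p = 0.26 in limma), and it passed the rule with RPL34 scaling (-0.99). A locus nested in DUSP7 averaged 11.3 and 25.6 (0.98, adjusted p = 0.088 in limma). It passed in edgeR (1.15), DESeq2 (1.18), with a pseudocount of 10 (0.66) and without the third THZ531 library (1.28), and was at 0.54 without the second THZ531 library, its highest. SPRY4-IT1 in SPRY4 averaged 28.5 and 35.9 (0.28, adjusted p = 0.48 in limma).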
